A study of Mus musculus with 30 samples.

Results

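The insulin-stimulated cells in which both FoxK transcription factors were depleted (double knockdown, DKD) were compared with the insulin-stimulated cells that received a non-silencing siRNA (Control). The members were chosen by their labels alone and are the 3 DKD and 3 Control samples taken after insulin, which is 6 of the 30 samples of the series, and every gene was examined. All 30 samples are AML12 cells, a line of immortalized hepatocytes from mice transgenic for TGF alpha, profiled by RNA-seq of polyadenylated RNA. The Control cells were transfected with the non-silencing siRNA and the DKD cells with siRNAs against Foxk1 and Foxk2, and all were deprived of serum overnight. The cells described here then received 100 nM insulin for 6 h. The knockdown was transient and partial, and all cells come from 1 line. The other 24 samples, which are the basal cells given no insulin and the cells with only FoxK1 or only FoxK2 depleted (FoxK1 KD and FoxK2 KD), were used for the shared estimate of the spread and for the side-by-side values given further on. The labels do not say whether replicates are separate cultures, so every p-value measures the spread between these samples, which may be technical.

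FoxK1 and FoxK2 are forkhead transcription factors that bind DNA through a winged-helix domain and are known mainly as repressors, in part through the Sin3 corepressor complex. Insulin acts through its receptor, PI3-kinase and AKT, and it is known to move FoxK proteins into the nucleus while it drives the FoxO forkhead factors out of it. In hepatocytes insulin promotes glycolysis, lipid and cholesterol synthesis and growth, and it restrains autophagy and the genes of fasting. The comparison asks which mRNAs differ in insulin-stimulated hepatocytes when both FoxK proteins are reduced.

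The 3 Control samples held 3879649, 3140647 and 3204787 counts, and the 3 DKD samples held 4077425, 2606258 and 4455447. Levels are given as CPM, that is, counts divided by the library total after a TMM adjustment for RNA composition, except that the levels and sums of cell type markers are CPM without that adjustment. The root mean square difference in log2-CPM between 2 samples was 0.371 to 0.436 within Control and 0.324 to 0.366 within DKD. The first 2 principal components of the 6 samples took 28.5% and 24.96% of the variance, with the groups overlapping on the first and apart on the second. A defining transcription factor of hepatocytes was present (Hnf4a, 132 to 148 CPM over the 6 samples). The 27 plasma proteins ranged widely, with Apob at 466 to 675 CPM, Rbp4 at 322 to 435 and Hpx at 81.4 to 121. Albumin was at 5.09 to 17.2 CPM. Of the 27, 9 were under 1 CPM in all 6 samples, among them Apoc1 and Apoc3 at 0. Markers of fibroblasts were near 0 (9 of 12 at 0 in all 6 samples, summed level 0.258 to 1.27 CPM in Control and 0 to 0.981 in DKD), as were those of endothelium (4.14 to 5.31 against 2.30 to 5.15). The 12 cholangiocyte and epithelial markers summed to 3902 to 4551 CPM in Control and 3844 to 4509 in DKD. The 12 macrophage and leukocyte markers summed to 100.2 to 132 and 99.0 to 123.4, nearly all of it from Cd14 (96.1 to 126 and 91.3 to 114). Of these 12, 6 were at 0 and 8 were under 1 CPM in all 6 samples. In bulk RNA, fewer cells of a kind and less of an mRNA per cell cannot be told apart.

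Both targeted genes were lower in the DKD samples, Foxk2 more than Foxk1. Foxk2 (ENSMUSG00000039275.9, chr11:121259990-121309896, plus strand of GRCm38) was at 157, 163 and 168 CPM in the 3 Control samples and at 59.03, 66.2 and 67.6 CPM in the 3 DKD samples. That is 39.5% of Control, with log2 fold change -1.34 ± 0.10 SE, adjusted p = 5e-11 by the quasi-likelihood test of edgeR. Every adjusted p given here comes from that test, with Benjamini-Hochberg adjustment over all genes tested, unless another tool is named. Foxk1 (ENSMUSG00000056493.9, chr5:142401497-142462011, plus strand) was at 52.2, 57.8 and 49.04 CPM in Control and 30.5, 31.3 and 40.9 CPM in DKD, or 64.6% of Control (log2 fold change -0.62 ± 0.15 SE, adjusted p = 0.0222). Neither gene overlapped between the groups, although the third DKD sample retained more Foxk1 than the other two. The Foxk1 call was lost without Control 1, Control 2, DKD 1 or DKD 2 (adjusted p up to 0.147), whereas that of Foxk2 held in each of the 6 refits that left out 1 sample. After insulin, Foxk2 stood at 65.7 ± 3.47 CPM (mean ± SD, n = 4) with FoxK2 siRNA alone, a log2 difference of DKD from FoxK2 KD of -0.03 ± 0.10 SE (adjusted p 0.998), and at 139 ± 12.4 CPM with FoxK1 siRNA alone. For Foxk1 the corresponding levels were 30.9 ± 3.11 CPM in FoxK1 KD and 52.4 ± 3.99 CPM in FoxK2 KD.

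**Figure D1:**
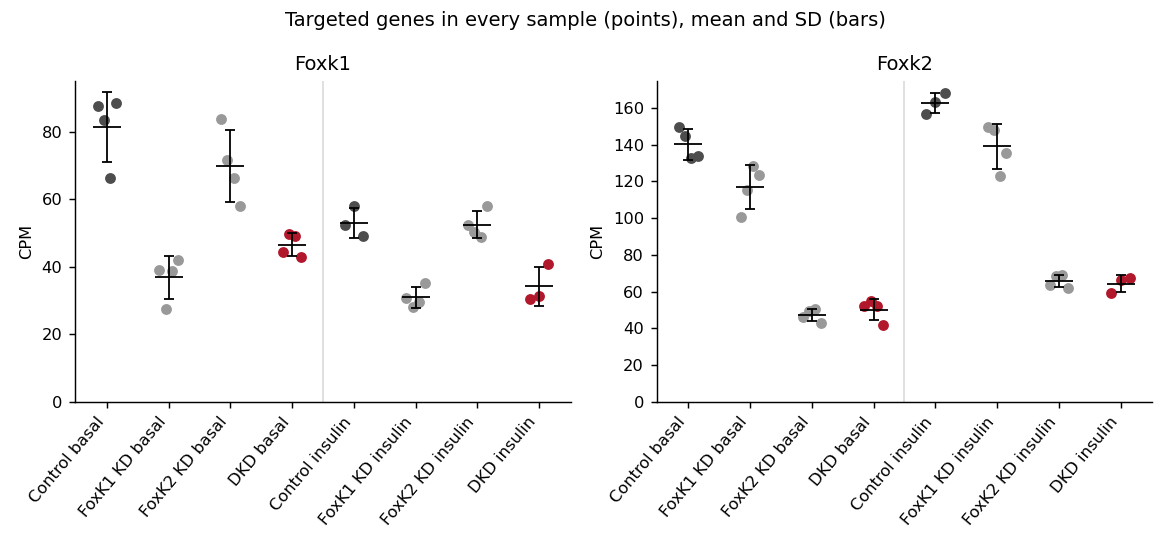
CPM of Foxk1 and Foxk2 (vertical axes) in every sample of the 8 groups (horizontal axes); points are samples and bars are the mean with the SD. After insulin the 3 DKD samples lie below the 3 Control samples for both genes, with Foxk2 at 39.5% and Foxk1 at 64.6% of Control.

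Of 11368 genes with enough counts to be tested, 99 rose (0.871%) and 39 fell (0.343%) in DKD at an adjusted p under 0.05, which is 138 genes or 1.21% in either direction. The increases were the larger in number and in size: their median log2 fold change was 0.69, and 67 of the 99 exceeded 1.5-fold and 20 exceeded 2-fold, against a median of -0.50, 9 of 39 and 3 of 39 for the decreases. Over all genes the median change was 0.01 and the median standard error 0.15. In 98 of the 99 genes that rose, all except Ube2h, and in 39 of the 39 that fell, the 3 DKD values lay entirely on one side of the 3 Control values. Over all genes tested, 998 (8.78%) had all DKD samples above all Control samples and 957 (8.42%) the reverse. Fewer genes were called when 1 sample was left out. Without Control 1, 2 or 3 in turn 83, 59 and 47 genes rose and 38, 22 and 19 fell. Without DKD 1, 2 or 3 it was 61, 56 and 41 that rose and 16, 13 and 28 that fell. In all 6 of these refits 30 of the 99 and 6 of the 39 were called. With only these 6 samples in the model 33 genes rose and 7 fell. DESeq2 called a different balance on the same counts, 107 genes up and 70 down, so that 60.5% of its calls were increases against 71.7% here. The genes that rose had a median GC content of 52.3% and a median exonic length of 3253 bases, those that fell 45.5% and 4832, and all genes 49.3% and 3393. After correction of every sample for its trend with GC content and exonic length, 138 genes rose and 79 fell, among them 94 of the 99 and 35 of the 39. The part that these properties have in the calls was not tested further.

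**Figure D2:**
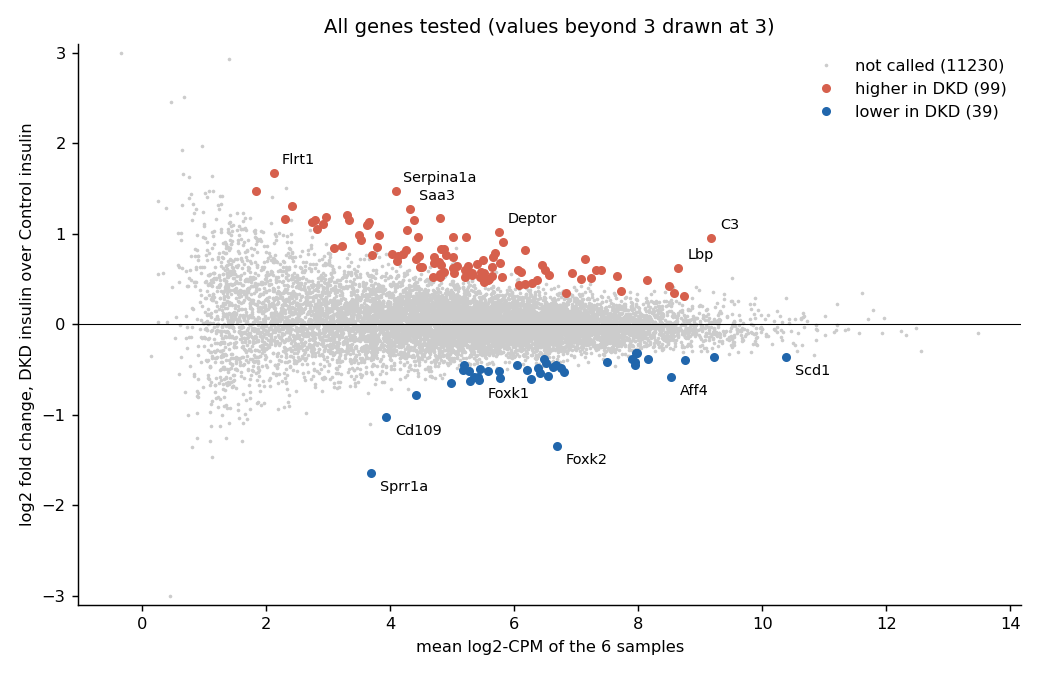
Log2 fold change of DKD over Control after insulin (vertical axis) against the mean log2-CPM of the 6 samples (horizontal axis) for all 11368 genes tested, with the called genes in colour. The 99 genes that rose reach further from 0 than the 39 that fell, and the genes with the largest changes have low to middling levels.

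The largest increases among protein-coding genes above the level used for naming included the liver's major protease inhibitor. Serpina1a (ENSMUSG00000066366.14, chr12:103853589-103863562, minus strand), which encodes alpha-1-antitrypsin, was at 9.49, 9.48 and 10.4 CPM in the 3 Control samples and at 27.3, 29.02 and 25.9 CPM in the 3 DKD samples (log2 fold change 1.48 ± 0.17 SE, adjusted p = 1.27e-06). Its neighbour Serpina1b was at 18.98, 17.4 and 17.9 CPM in Control and 46.8, 43.3 and 33.6 CPM in DKD (log2 fold change 1.18 ± 0.18 SE, adjusted p = 0.000126). The DKD values of both genes stood clear of the Control values. Since the 2 genes are near-identical copies, reads may be shared between them and the split is uncertain. Saa3, an acute-phase serum amyloid, was at 10.8, 14.2 and 12.6 CPM in Control and 32.2, 27.5 and 30.7 CPM in DKD (log2 fold change 1.28 ± 0.22 SE, adjusted p = 0.000614). Flrt1, a membrane protein of cell adhesion, had the largest fold change of the genes called, from 3.43, 0.632 and 2.52 CPM in Control to 5.61, 8.90 and 7.74 CPM in DKD (log2 fold change 1.67 ± 0.36 SE, adjusted p = 0.0101). It is scarce, and its call was lost without Control 2, DKD 2 or DKD 3 (adjusted p up to 0.0933).

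Among the other genes with the largest increases were a solute carrier and 3 metabolic genes. Slc6a18, a carrier of neutral amino acids, was at 12.4, 14.2 and 14.1 CPM in Control and 29.8, 27.9 and 32.3 CPM in DKD (log2 fold change 1.15 ± 0.15 SE, adjusted p = 8.18e-06). It was called in every refit that left out 1 sample. Bckdha, a subunit of the dehydrogenase that degrades branched-chain amino acids, rose from 3.96, 3.16 and 1.89 CPM in Control to 6.34, 8.51 and 8.18 CPM in DKD (log2 fold change 1.31 ± 0.32 SE, adjusted p = 0.0284). Ppp1r3c, which brings protein phosphatase 1 to glycogen, rose from 6.06, 6.32 and 6.60 CPM in Control to 12.2, 15.5 and 15.03 CPM in DKD (log2 fold change 1.16 ± 0.29 SE, adjusted p = 0.0312). Fn3k, a kinase that removes sugar adducts from proteins, went from 2.64, 2.84 and 3.14 CPM in Control to 5.61, 8.13 and 6.19 CPM in DKD (log2 fold change 1.17 ± 0.30 SE, adjusted p = 0.0455). These 3 genes are scarce, and their calls were lost in most refits that left out 1 sample. Their log2 fold changes stayed at 1.06 to 1.58, 1.09 to 1.25 and 1.02 to 1.26 in those refits. Bckdha was not called without Control 2, Control 3, DKD 2 or DKD 3 (adjusted p up to 0.194). Ppp1r3c held only without DKD 1 (up to 0.131 otherwise), and Fn3k was called in none of the 6 refits (up to 0.176).

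Large increases were also found for Mmp19, a matrix metalloprotease, Gstm7, a glutathione transferase, and Nrip2, a nuclear receptor binding protein. Mmp19 was at 8.44, 4.42 and 5.97 CPM in Control and 16.3, 10.8 and 16.1 CPM in DKD (log2 fold change 1.21 ± 0.29 SE, adjusted p = 0.0277). Gstm7 was at 6.06, 2.53 and 5.97 CPM in Control and 11.7, 11.6 and 10.6 CPM in DKD (log2 fold change 1.19 ± 0.29 SE, adjusted p = 0.0283). For Nrip2 the values were 4.22, 4.42 and 4.09 CPM in Control and 8.05, 8.51 and 11.5 CPM in DKD (log2 fold change 1.15 ± 0.30 SE, adjusted p = 0.0462). All 3 calls were likewise lost in most refits without 1 sample. Mmp19 was called in 2 of the 6 refits (without Control 1 or DKD 2), Gstm7 in 1 (without Control 1) and Nrip2 in 0, with adjusted p up to 0.155, 0.184 and 0.236. Their log2 fold changes stayed between 0.884 and 1.5 in those refits.

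**Figure D3:**
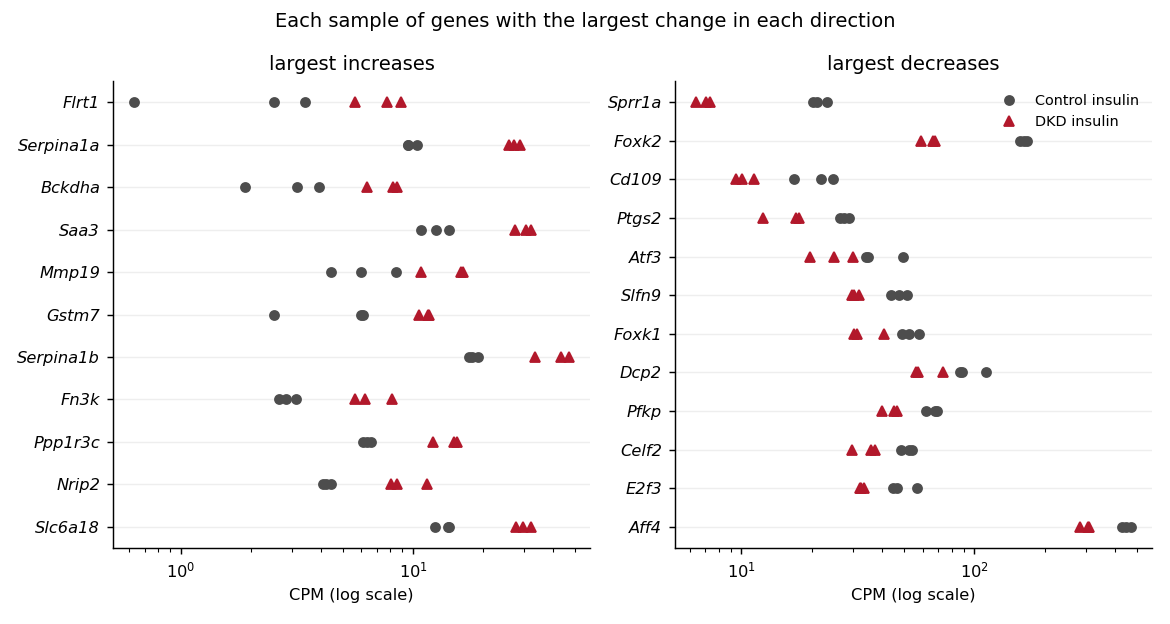
CPM on a log scale (horizontal axes) of genes with the largest increases and decreases (rows), with a point for each of the 3 Control and 3 DKD samples. In every row the DKD points lie entirely to one side of the Control points, as the rule that chose these genes required.

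Fold size favours scarce genes, so genes with small adjusted p outside those above are given too, chosen after their values were seen. Ctsf, the lysosomal protease cathepsin F, was at 39.8, 42.7 and 40.2 CPM in Control and 73.4, 71.97 and 84.9 CPM in DKD (log2 fold change 0.91 ± 0.10 SE, adjusted p = 7.07e-07). Deptor (ENSMUSG00000022419.15, chr15:55112317-55259271, plus strand), an inhibitory partner of the mTOR kinase, was at 34.3, 42.4 and 35.8 CPM in Control and 72.2, 73.5 and 80.9 CPM in DKD (log2 fold change 1.02 ± 0.12 SE, adjusted p = 9.92e-07). Pdcd4, a translation inhibitor that S6 kinase marks for degradation, was at 125, 96.7 and 107 CPM in Control and 184, 178 and 182 CPM in DKD (log2 fold change 0.72 ± 0.10 SE, adjusted p = 1.26e-05). In each the DKD samples were near each other and well above Control. Lbp, the plasma protein that binds lipopolysaccharide, was at 356, 320.5 and 287 CPM in Control and 499.5, 486 and 505 CPM in DKD (log2 fold change 0.63 ± 0.09 SE, adjusted p = 4.44e-05), and Sept4, a septin, was at 27.9, 26.2 and 24.5 CPM in Control and 45.6, 55.7 and 53.5 CPM in DKD (log2 fold change 0.97 ± 0.13 SE, adjusted p = 1.15e-05). All 5 kept their call in every refit that left out 1 sample and in each of the other settings tried.

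The decreases were led by Sprr1a (ENSMUSG00000050359.7, chr3:92483952-92485895, minus strand), a small proline-rich protein of stressed epithelia. Sprr1a was at 20.3, 23.4 and 21.1 CPM in the 3 Control samples and at 7.07, 7.35 and 6.41 CPM in the 3 DKD samples (log2 fold change -1.64 ± 0.19 SE, adjusted p = 1.27e-06), a larger fold change than that of either siRNA target. Cd109, a surface protein that restrains TGF-beta signaling, was at 16.9, 24.7 and 22.01 CPM in Control and 9.51, 10.1 and 11.3 CPM in DKD (log2 fold change -1.02 ± 0.18 SE, adjusted p = 0.0012). Both held in every refit without 1 sample, as did Aff4, a scaffold of the super elongation complex of RNA polymerase II, at 430.1, 449 and 469 CPM in Control and 283, 311 and 308 CPM in DKD (log2 fold change -0.58 ± 0.08 SE, adjusted p = 6.26e-05).

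The other genes with the largest decreases have varied roles. Ptgs2, the inducible cyclooxygenase, was at 26.4, 27.5 and 28.9 CPM in Control and 17.1, 12.4 and 17.7 CPM in DKD (log2 fold change -0.78 ± 0.18 SE, adjusted p = 0.0222), and the stress factor Atf3 was at 49.6, 35.1 and 34.3 CPM in Control and 24.9, 19.7 and 30.1 CPM in DKD (log2 fold change -0.65 ± 0.15 SE, adjusted p = 0.0175). Dcp2, the mRNA decapping enzyme, was at 86.8, 112 and 88.03 CPM in Control and 57.1, 56.1 and 73.4 CPM in DKD (log2 fold change -0.61 ± 0.12 SE, adjusted p = 0.00423). Pfkp, a phosphofructokinase of glycolysis, was at 69.3, 61.9 and 67.9 CPM in Control and 45.1, 40.2 and 46.4 CPM in DKD (log2 fold change -0.59 ± 0.13 SE, adjusted p = 0.0109). E2f3, a factor that activates genes of S phase, was at 44.6, 56.6 and 46.5 CPM in Control and 33.7, 32.5 and 32.3 CPM in DKD (log2 fold change -0.58 ± 0.12 SE, adjusted p = 0.00766). Slfn9 and the RNA-binding protein Celf2 completed the list with log2 fold changes of -0.63 and -0.58 (adjusted p 0.0471 and 0.0413). The calls of Slfn9 and Celf2 were lost in all 6 refits (adjusted p up to 0.182 and 0.218). Ptgs2 was called only without Control 1 or DKD 3 (up to 0.114 otherwise) and Atf3 only without Control 2, Control 3 or DKD 3 (up to 0.157). Dcp2 and E2f3 were lost without Control 2 (0.0565 and 0.0695) and Pfkp without DKD 2 (0.0593).

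Nearly all called genes were protein-coding, 97 of the 99 that rose and 38 of the 39 that fell. The exceptions were 2310015A10Rik, a processed transcript (log2 fold change 1.13, adjusted p 0.0169), 2810402E24Rik, annotated as antisense (0.86, 0.0284), and Atp10d, annotated as a polymorphic pseudogene (-0.52, 0.0492). The first kept its call in 4 of the 6 refits (lost without Control 3 or DKD 1, up to 0.139), the second in 2 (without Control 1 or DKD 2, up to 0.185 otherwise) and the third in 0 (up to 0.197), and not with the GC and length correction. The sources do not say whether reads were counted by strand, so reads of an antisense gene and its partner may not be separable. Of 192 processed pseudogenes and 130 lincRNAs tested, 0 were called by edgeR, DESeq2 or limma-voom, while 8 and 5 had an unadjusted p under 0.05.

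Forkhead proteins recognise short AT-rich sites with a core such as GTAAACA, and the promoters of called genes are shown for that reason. The letters searched were GTAAACA with its variants ATAAACA and GTAAATA and ATAAATA, on both strands of the RefSeq promoter windows (GRCm38.p6) of 300 bases, from 250 before to 50 after each start site. Stretches around a match are printed 5′ to 3′ on the strand of the gene, with the matched letters in capitals. They are from 5 of the 15 genes that rose and held a match, and these 5 do not stand for the others.
Serpina1a, chr12:103863772-103863828, minus strand: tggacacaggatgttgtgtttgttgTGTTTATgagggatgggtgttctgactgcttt
Ctsf, chr19:4855073-4855129, plus strand: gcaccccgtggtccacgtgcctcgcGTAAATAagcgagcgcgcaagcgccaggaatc
Hbp1, chr12:31950363-31950419, minus strand: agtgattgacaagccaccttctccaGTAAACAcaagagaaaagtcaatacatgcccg
Gpr146, chr5:139389816-139389872, plus strand: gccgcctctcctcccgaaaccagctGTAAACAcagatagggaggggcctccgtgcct
Pde4c, chr8:70723907-70723963, plus strand: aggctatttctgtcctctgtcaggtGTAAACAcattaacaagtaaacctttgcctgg
In Serpina1a the capitals TGTTTAT are ATAAACA read on the other strand. Hbp1, a repressor of the cell cycle, was at 64.6, 76.8 and 79.5 CPM in Control and 103, 99.8 and 129.5 CPM in DKD (log2 fold change 0.60 ± 0.13 SE, adjusted p = 0.0101). Gpr146, an orphan receptor of hepatocytes, was at 19.5, 17.1 and 17.6 CPM in Control and 29.03, 22.8 and 31.4 CPM in DKD (log2 fold change 0.64 ± 0.17 SE, adjusted p = 0.0455). Pde4c, a cyclic AMP phosphodiesterase, was at 25.3, 43.6 and 39.6 CPM in Control and 50.98, 51.1 and 58.4 CPM in DKD (log2 fold change 0.58 ± 0.14 SE, adjusted p = 0.0254). The Hbp1 call was lost without Control 1 or DKD 3 (adjusted p up to 0.131), that of Gpr146 with the GC and length correction and in all refits except the one without DKD 2 (up to 0.229), and that of Pde4c in all except those without Control 2 or Control 3 (up to 0.188).

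A window was at hand for 72 of the 99 genes that rose (72.7%), 32 of the 39 that fell and 8882 of the 11368 tested. GTAAACA was present in 6 of the 72 (8.33%), in 0 of the 32 and in 279 of the 8882 (3.14%), and in 4.05% of all genes with a window in the table. Any of the 4 sequences was present in 15 (20.8%), 3 (9.38%) and 907 (10.2%), and in 16.9% of all genes with a window. Fewer than 80% of the genes that rose, and of all genes tested, had a window, so the shares of the groups cannot be compared and the check is void. A match says only that these letters occur there. The 3 genes that fell with a match were Celf2, Rad18 and Smc2, and Celf2 and Smc2 are shown for contrast.
Celf2, chr2:7396352-7396408, minus strand: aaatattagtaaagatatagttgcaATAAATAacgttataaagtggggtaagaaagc
Smc2, chr4:52439093-52439149, plus strand: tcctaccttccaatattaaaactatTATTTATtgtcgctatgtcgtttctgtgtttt
In Smc2, a subunit of condensin, the capitals TATTTAT are ATAAATA read on the other strand.

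Most genes of the cell cycle had lower values in DKD, although few passed the test. Of 39 genes of DNA replication and S phase that were tested, 3 fell, 0 rose, 37 had a negative log2 fold change and the median was -0.269, where 51.1% of all genes had a positive one and the median over all genes was 0.01. In 20 of the 39 (51.3%) every DKD sample was below every Control sample, against 8.42% of all genes. The mean log2-CPM of the 39 genes was 6.14, 6.12 and 6.13 in the 3 Control samples and 5.95, 5.86 and 5.85 in the 3 DKD samples, with no overlap. The 3 that fell were Rrm2, a subunit of ribonucleotide reductase, and Mcm2 and Mcm3, subunits of the replicative helicase. Rrm2 was at 302, 278 and 281 CPM in Control and 221, 213 and 195 CPM in DKD (log2 fold change -0.45 ± 0.10 SE, adjusted p = 0.0137). Mcm2 had a log2 fold change of -0.38 (adjusted p 0.0169) and Mcm3 of -0.39 (0.0269), and the next member, Rfc1 of the clamp loader, did not pass at -0.30 (0.0627). The calls were lost for Rrm2 without Control 1 or DKD 3, for Mcm2 without Control 1, Control 2 or DKD 2, and for Mcm3 without Control 1, Control 2, DKD 2 or DKD 3, with adjusted p up to 0.0885, 0.120 and 0.120.

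Of the 50 genes of mitosis 1 fell, 0 rose, 48 had a negative log2 fold change, the median was -0.265, and in 27 (54.0%, against 8.42% of all genes) the DKD samples were all below the Control samples. Their mean log2-CPM was 6.18, 6.15 and 6.22 in Control and 5.96, 5.92 and 5.91 in DKD. Top2a, the topoisomerase of dividing cells and the 1 member called, was at 596, 692 and 738 CPM in Control and 550.3, 540.2 and 489 CPM in DKD (log2 fold change -0.36 ± 0.09 SE, adjusted p = 0.0471), and was called only without Control 1 among the refits (up to 0.234 otherwise) and not with the GC and length correction. The next, Anln, was at -0.38 with an adjusted p of 0.062. The medians of the replication and mitosis lists stayed between -0.306 and -0.245 in all other settings, including those that left out 1 sample. Among 19 G1 cyclins, their partners and CDK inhibitors, E2f3 fell, 0 rose and the median was 0.11. Cdkn2a, the locus of the p16 and p19 inhibitors, had a log2 fold change of 0.67 (adjusted p 0.134).

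Among 25 components of the PI3K, AKT and mTOR pathway 2 rose, 0 fell and the median was -0.04. Both that rose restrain or respond to the pathway, namely Deptor, given above, and Sgk1, a kinase that mTORC2 activates, which was at 37.97, 32.2 and 33.3 CPM in Control and 55.6, 57.3 and 57.7 CPM in DKD (log2 fold change 0.72 ± 0.13 SE, adjusted p = 0.0018). The 9 tested receptors, substrates and binding proteins of insulin and IGF all had a positive log2 fold change with a median of 0.23 (down to 0.144 without 1 sample), but 0 were called by edgeR, DESeq2 or limma-voom and 3 had an unadjusted p under 0.05. In 4 of the 9 (44.4%) all DKD samples were above all Control samples, against 8.78% of all genes. The nearest to the threshold was Irs2, the insulin receptor substrate that fasting raises in liver, at 55.9, 67.95 and 76.1 CPM in Control and 91.96, 97.9 and 78.5 CPM in DKD (log2 fold change 0.42 ± 0.12 SE, adjusted p = 0.0899), which misses it. Irs2 is also 1 of 16 tested fasting genes of the FoxO type, of which 12 had a positive log2 fold change, 0 were called by any of the 3 tools and 3 had an unadjusted p under 0.05, with a median of 0.16 (down to 0.0877 without 1 sample). Igfbp1, Pck1 and G6pc of that list could not be tested, with 0, 3 and 2 counts in the 6 samples together. Neither other forkhead factors (0 of 15, median 0.07) nor corepressor and BAP1 partners of FoxK (0 of 15, median -0.04) held a called gene by any of the 3 tools, and 1 of each 15 had an unadjusted p under 0.05. The smallest adjusted p among them were those of Foxp1 (0.30, adjusted p 0.25) and Sin3a (-0.28, adjusted p 0.282).

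In lipid metabolism, most cholesterol genes had lower values in DKD and 1 passed the test. Of 26 genes of cholesterol synthesis and uptake 1 fell, 0 rose, 23 had a negative log2 fold change, the median was -0.15, and 12 (46.2%, against 8.42% of all genes) had all DKD samples below all Control samples. Their mean log2-CPM was 8.31, 8.26 and 8.27 in Control against 8.12, 8.13 and 8.17 in DKD. Hsd17b7, a reductase of the pathway, was at 298, 272 and 263 CPM in Control and 216, 219.8 and 231 CPM in DKD (log2 fold change -0.32 ± 0.08 SE, adjusted p = 0.0406). Its call was lost in all 6 refits without 1 sample (adjusted p up to 0.145). Lss, the synthase that forms lanosterol, was at 601, 679 and 640.4 CPM in Control and 533, 524 and 543 CPM in DKD and missed the threshold (log2 fold change -0.26 ± 0.08 SE, adjusted p = 0.0885). DESeq2 called 4 of the 26 and limma-voom 2, all lower.

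Fatty acid synthesis and desaturation, with 25 genes and a median of -0.10, held 1 gene that fell and 1 that rose. Scd1 (ENSMUSG00000037071.2, chr19:44394455-44407879, minus strand), the desaturase that makes oleate and a textbook insulin-induced gene of liver, was at 1531, 1491 and 1505 CPM in Control and 1122, 1258 and 1144 CPM in DKD (log2 fold change -0.36 ± 0.09 SE, adjusted p = 0.0285). Dgat2, which completes triglyceride synthesis, was at 45.1, 30.97 and 31.4 CPM in Control and 48.5, 54.6 and 53.5 CPM in DKD (log2 fold change 0.53 ± 0.14 SE, adjusted p = 0.0413). Each of these calls was kept in only 1 of the 6 refits, that without DKD 2 for Scd1 and that without Control 1 for Dgat2 (adjusted p up to 0.125 and 0.257 otherwise). The Dgat2 call was also lost with the GC and length correction. Of 24 genes of fatty acid oxidation 0 were called by any of the 3 tools and 0 had an unadjusted p under 0.05, with a median of 0.05, which was -0.000566 in 1 of the refits without 1 sample.

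In carbohydrate metabolism, 1 of 24 genes of glucose uptake, glycolysis and lactate export fell, which was Pfkp, 0 rose, and 18 had a negative log2 fold change with a median of -0.11 (-0.166 to -0.0401 without 1 sample). Hk2, the inducible hexokinase, was at 48.3, 53.7 and 48.4 CPM in Control and 37.3, 37.5 and 38.02 CPM in DKD and missed the threshold (log2 fold change -0.41 ± 0.12 SE, adjusted p = 0.0741), although its groups did not overlap. Among 30 genes of pyruvate dehydrogenase and the TCA cycle only Pdk2, a kinase that switches pyruvate dehydrogenase off, was called. It was at 25.05, 21.8 and 19.5 CPM in Control and 31.7, 30.2 and 42.00 CPM in DKD (log2 fold change 0.66 ± 0.13 SE, adjusted p = 0.00295). Its call was lost without Control 3 or DKD 3 (adjusted p up to 0.109).

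By edgeR 0 genes of the respiratory chain and of mitochondrial upkeep were called after insulin, where 1.21% of all genes were. The nuclear subunits of complex I (35 genes, median 0.06) and of complexes III to V (36 genes, -0.01), the 13 transcripts of the mitochondrial genome (0.12) and the 72 mitochondrial ribosomal proteins (0.01) held 0 called genes by edgeR, DESeq2 or limma-voom, and 1, 1, 0 and 0 genes with an unadjusted p under 0.05. Of the 38 genes of mitochondrial import, fusion and fission (-0.04), edgeR and limma-voom called 0 and DESeq2 called 1 lower, with 5 at an unadjusted p under 0.05. The sign of each of these 5 medians changed in 1 to 5 of the 17 other settings, so no direction is given for them. The mitochondrial transcripts spread widely between replicates, with a mean log2-CPM of 7.82, 7.37 and 7.38 in Control and 7.46, 7.87 and 7.70 in DKD.

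Most genes of 3 stress and growth lists had lower values in DKD, and few passed the test. Of 29 genes of the ATF4 and amino acid response 1 fell, 0 rose and 22 had a negative log2 fold change (median -0.18, and -0.217 to -0.108 without 1 sample). The 1 that fell, Slc7a5, the carrier of large neutral amino acids, was at 111, 102 and 105 CPM in Control and 80.01, 69.3 and 85.99 CPM in DKD (log2 fold change -0.43 ± 0.10 SE, adjusted p = 0.0269) and was called only without Control 2 or DKD 3 among the refits (adjusted p up to 0.141 otherwise). Of 15 feedback inhibitors of ERK signaling 12 had a negative value (median -0.21, and -0.246 to -0.137 without 1 sample), 0 were called by any of the 3 tools and 4 had an unadjusted p under 0.05. Of 16 AP-1, EGR and MYC family factors Atf3 and Ier3 fell, Mxd4, an antagonist of MYC, rose (0.50, adjusted p 0.0222, and up to 0.102 in the 5 refits other than that without DKD 1), and 12 had a negative value (median -0.15, and -0.217 to -0.0814 without 1 sample). Ier3, an immediate early gene of cell survival, was at 117, 103 and 88.7 CPM in Control and 78.8, 62.7 and 70.96 CPM in DKD (log2 fold change -0.54 ± 0.14 SE, adjusted p = 0.0471) and was called only without Control 3 (up to 0.188 otherwise). Mean log2-CPM did not overlap between the groups for the ATF4 list (7.01, 7.02 and 6.97 against 6.88, 6.79 and 6.84) or the ERK list (4.91, 5.05 and 4.996 against 4.83, 4.804 and 4.82). Of 24 ER chaperones and genes of the unfolded protein response, edgeR and limma-voom called 0, DESeq2 called 1 higher, and 3 had an unadjusted p under 0.05 (median 0.07).

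**Figure D4:**
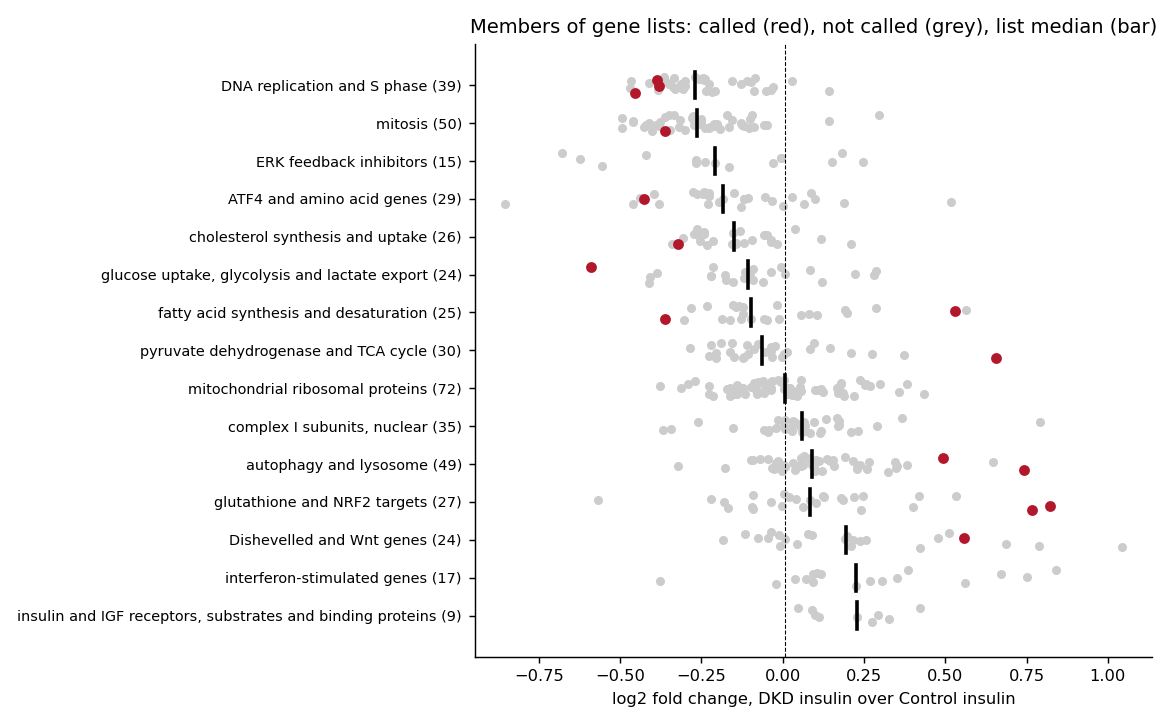
Log2 fold change of DKD over Control after insulin (horizontal axis) for the tested members of a selection of the gene lists (rows). Called genes are in red, other genes in grey and the list median is a bar. The remaining lists are not drawn. The replication and mitosis rows lie left of 0, with medians of -0.269 and -0.265.

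Autophagy and cell death genes included 4 that rose and 0 that fell, where 0.871% of all genes rose and 0.343% fell. Of 49 genes of autophagy and the lysosome 36 had a positive log2 fold change (median 0.09, and 0.0532 to 0.12 without 1 sample) and 2 rose, Wdr45 and Atg13, both of which act early in the making of autophagosomes. Wdr45 was at 25.8, 24.02 and 24.2 CPM in Control and 52.7, 39.9 and 31.6 CPM in DKD (log2 fold change 0.74 ± 0.17 SE, adjusted p = 0.0185), with the DKD samples far apart. Atg13 was at 72.5, 79.96 and 55.96 CPM in Control and 101, 90.9 and 101 CPM in DKD (log2 fold change 0.49 ± 0.12 SE, adjusted p = 0.0208). Of 31 apoptosis regulators (median 0.05) Bmf, a BH3-only activator of apoptosis, rose from 107, 102 and 90.2 CPM in Control to 141, 154 and 148 CPM in DKD (log2 fold change 0.56 ± 0.13 SE, adjusted p = 0.0169). Fas, the death receptor, rose from 48.5, 36.03 and 34.3 CPM in Control to 61.5, 69.3 and 56.4 CPM in DKD (log2 fold change 0.64 ± 0.16 SE, adjusted p = 0.0413). Each of these 4 calls was lost in some refits without 1 sample, while their log2 fold changes stayed between 0.351 and 0.908. Wdr45 was called only without Control 1 or DKD 3 (adjusted p up to 0.253 otherwise), Atg13 only without Control 1, Control 2 or DKD 2 (up to 0.232), Bmf only without Control 1 or DKD 1 (up to 0.15), and Fas only without Control 1 (up to 0.238).

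Genes of secreted and defence proteins moved in both directions. In the list of chemokines, NF-kB feedback and adhesion (22 genes, median -0.05), Saa3 and C3 rose and Ccl20 fell. C3, the central complement protein, was at 333, 426 and 494 CPM in Control and 726, 881 and 825 CPM in DKD (log2 fold change 0.96 ± 0.18 SE, adjusted p = 0.0018). It was called in every refit. Ccl20, a chemokine, was at 152, 133 and 115 CPM in Control and 105, 89.4 and 83.8 CPM in DKD (log2 fold change -0.53 ± 0.13 SE, adjusted p = 0.0396) and was called only without Control 3 or DKD 1 (adjusted p up to 0.172 otherwise). Of the hepatocyte secreted proteins 12 of 27 had enough counts and only Serpina1a and Serpina1b rose. Their median was 0.03, but 0.264 without Control 1 and up to 0.158 in settings that kept all 6 samples. Haptoglobin was higher in value but not called (1.42 ± 0.58 SE, adjusted p 0.27). The 27 secreted proteins summed to 1145 to 1212 CPM in Control and 1177 to 1348 in DKD. The 19 hepatocyte transcription factors summed to 556.7 to 567.4 and 572.4 to 607.8. Of these 15 were tested, 0 were called by any of the 3 tools and 2 had an unadjusted p under 0.05. The part of these marker levels in the secreted genes was not tested. Of 17 interferon-stimulated genes 15 had a positive log2 fold change, 0 were called by any of the 3 tools and 4 had an unadjusted p under 0.05. Their median of 0.22 was lower in each refit without 1 sample, at 0.194 or less, and was 0.086 without Control 1.

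Matrix, detoxification, clock and Wnt lists held few called genes each. Thbs1, a matrix glycoprotein, was at 23.99, 18.6 and 22.01 CPM in Control and 41.5, 37.5 and 36.3 CPM in DKD (log2 fold change 0.83 ± 0.15 SE, adjusted p = 0.00124). Lamb3, a laminin chain, was at 128, 118 and 111 CPM in Control and 86.1, 80.5 and 94.4 CPM in DKD (log2 fold change -0.45 ± 0.09 SE, adjusted p = 0.00668, lost without DKD 2 at 0.0512), in a list of 25 with a median of 0.01. The detoxifying Gstm1 was at 66.2, 47.1 and 48.4 CPM in Control and 91.96, 109 and 88.4 CPM in DKD (log2 fold change 0.82 ± 0.14 SE, adjusted p = 0.000602) and Gstm2 had a log2 fold change of 0.77 (adjusted p 0.0169, lost without Control 1, Control 3 or DKD 2 at up to 0.107), in a list of 27 with a median of 0.08 (down to 0.0109 without 1 sample). Gstm1, Gstm2 and Gstm7 are close paralogs, so reads may be shared among them. Of 19 clock genes (median 0.14, but 0.0221 without DKD 3) 1 rose and 1 fell, the latter the repressor Bhlhe40 (log2 fold change -0.32 ± 0.07 SE, adjusted p = 0.0185). The Bhlhe40 call was lost without Control 3, DKD 1 or DKD 2 (up to 0.106). Of 24 Dishevelled and Wnt genes 17 had a positive value (median 0.195, down to 0.122 without 1 sample) and the ligand Wnt4 rose (log2 fold change 0.56 ± 0.14 SE, adjusted p = 0.0284), but in none of the refits without 1 sample (up to 0.129). The 77 cytosolic ribosomal proteins held 0 called genes by any of the 3 tools and 3 with an unadjusted p under 0.05 (median -0.02, positive in 3 of the 17 other settings).

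The study itself singled out genes on these samples, so their direction here is not independent evidence. Of 12 such genes from its groups of FoxK-regulated genes, 4 rose after insulin (Alpl, Sgk1, Adgrg1 and Wdr45), 2 fell (Aff4 and Scd1) and 6 did not pass. The study named them after describing its basal comparison, made at an FDR under 0.25, so the values after insulin are not a repeat of its test. At basal 6 of the 12 rose and 6 fell here, at an adjusted p under 0.05. Alpl, an alkaline phosphatase, was at 8.44, 9.17 and 6.29 CPM in Control and 15.9, 20.9 and 15.7 CPM in DKD (log2 fold change 1.10 ± 0.18 SE, adjusted p = 0.000372). Adgrg1, an adhesion receptor, was at 36.1, 43.3 and 40.2 CPM in Control and 55.1, 52.6 and 59.7 CPM in DKD (log2 fold change 0.49 ± 0.11 SE, adjusted p = 0.0101, lost without Control 1 or DKD 3 at up to 0.101). The 6 that did not pass after insulin were Mcam (1.13, adjusted p 0.192), Tgoln1 (-0.29, 0.0984), Vcam1 (-0.22, 0.289), Scd2 (-0.12, 0.547), Ccnd1 (0.11, 0.669) and mt-Nd6 (-0.17, 0.65). Another 21 of the genes that the study named for the response to insulin, mitochondrial metabolism or the cell cycle were listed here. The study named more such genes, which these 21 do not cover. Of the 21, 11 were too scarce to be tested, with 7 to 32 counts each in the 6 samples together. Of the 10 tested, 0 were called by edgeR, DESeq2 or limma-voom and 3 had an unadjusted p under 0.05. Besides Hk2 the 10 tested genes included Slc7a11 (-0.57, 0.0887), Letm1 (-0.19, 0.39), Dusp5 (-0.62, 0.477), Ccng2 (0.20, 0.498), Mfn2 (-0.04, 0.92), Tomm22 (0.06, 0.921), Mtch1 (0.05, 0.924) and Cdkn1b (-0.03, 0.958). Ccng2, a cyclin that accompanies cell cycle exit, was at 191, 205 and 219 CPM in Control and 218, 224 and 264 CPM in DKD, and Cdkn1b, the p27 inhibitor, at 176, 179 and 191 CPM in Control and 170.5, 189.6 and 175 CPM in DKD, so that both overlapped between the groups.

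The same knockdown was measured without insulin in 4 DKD and 4 Control samples that share no sample with the 6 described here. The labels give these a time of 0 while the methods describe a mock treatment, so whether they were kept as long as the insulin-treated cells is not clear, and time in culture and insulin cannot be told apart. At basal 1169 genes rose (10.3%) and 1229 fell (10.8%) in DKD. The rank correlation of the log2 fold change with GC content was 0.466 at basal and 0.203 after insulin. With the GC and length correction 841 genes rose and 978 fell at basal. Control basal replicate 1 stood 0.507 to 0.524 from its 3 replicates in root mean square log2-CPM, against 0.307 to 0.313 among those, and without it 1480 genes rose and 1583 fell at basal. Of the 99 genes that rose after insulin, 59 also rose at basal, 0 fell and 95 had the same sign. Of the 39 that fell after insulin, 23 also fell at basal, 0 rose and 38 had the same sign. The 82 genes called in both make up 59.4% of the insulin list and 3.42% of the basal list. Across all genes tested the 2 log2 fold changes had r = 0.26 and rho = 0.33, given as a description, since genes are not independent replicates.

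**Figure D5:**
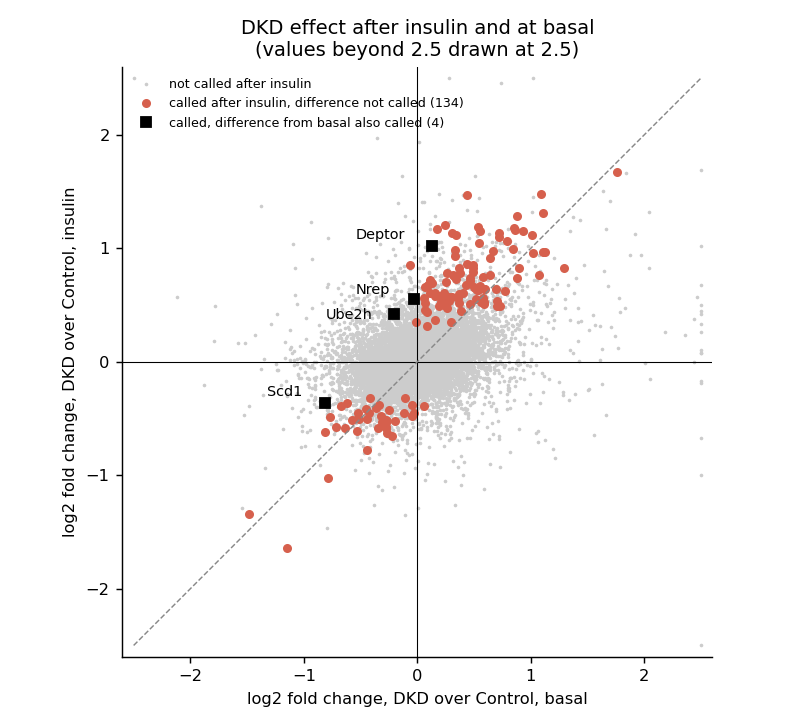
Log2 fold change of DKD over Control after insulin (vertical axis) against that at basal (horizontal axis) for all genes tested, with the genes called after insulin in colour. Of the 99 genes that rose after insulin 95 lie right of 0 on the basal axis, and Deptor, at 1.02 after insulin and 0.13 at basal, is among those that lie near it.

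The difference between the 2 effects was tested as an interaction. It was higher after insulin for 114 genes (1.003%) and lower for 61 (0.537%), and 4 of the 138 genes called after insulin were among these. Deptor had the smallest adjusted p of these 4. Its mean rose from 37.5 ± 4.28 CPM in Control to 75.5 ± 4.69 CPM in DKD after insulin (mean ± SD, n = 3), and at basal it was 103 ± 7.95 and 113 ± 2.88 CPM (n = 4). The difference was 0.89 ± 0.15 (SE) in log2 with an adjusted p of 0.000915. Nrep and Ube2h, an E2 ubiquitin-conjugating enzyme, rose after insulin (log2 fold change 0.55 and 0.42) and were not called at basal, at -0.03 and -0.20 (difference 0.58 and 0.63, adjusted p 0.0426 and 0.016). Scd1 fell less after insulin than at basal, with log2 fold changes of -0.36 and -0.81 (difference 0.45 ± 0.12 SE, adjusted p 0.0406). Without Control basal replicate 1 the number of genes with a called difference went from 175 to 358, without DKD insulin 2 to 60, without DKD basal 1 to 71, without Control insulin 2 to 90, and without Control insulin 3 or DKD basal 3 to 111 and 116. With the GC and length correction that number was 131. The difference for Deptor was called in all 14 refits that each left out 1 of the 14 samples, that for Ube2h in 11, for Scd1 in 5 and for Nrep in 4.

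Each siRNA alone, with 4 samples a group after insulin, was compared with the same Control samples, so those values share their Control with DKD and are set side by side only. FoxK1 siRNA alone raised 212 genes (1.86%) and lowered 196 (1.72%), and FoxK2 siRNA alone raised 1 (0.00880%) and lowered 2 (0.0176%), with 685 genes at an unadjusted p under 0.05 for FoxK2 siRNA and 1995 for FoxK1 siRNA. The 99 genes that rose in DKD had a median log2 fold change of 0.69 in DKD, 0.49 in FoxK1 KD and 0.34 in FoxK2 KD, and the 39 that fell had medians of -0.50, -0.40 and -0.22. The DKD medians come from the comparison that chose the genes. The 1 gene that FoxK2 siRNA alone raised was Pdcd4 (0.50, adjusted p 0.0242), which stood at 0.67 with FoxK1 siRNA and 0.72 in DKD. The 2 it lowered were Foxk2 itself and Lamb3 (-0.45, adjusted p 0.0268).

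DKD was also set directly against each single knockdown. Against FoxK1 KD, 22 genes were higher in DKD (0.194%) and 18 lower (0.158%), and against FoxK2 KD 11 were higher (0.0968%) and 4 lower (0.0352%). Of the 99 genes that rose against Control, 6 were higher in DKD than in FoxK1 KD and 10 were higher than in FoxK2 KD. Deptor was higher than in either, with log2 fold changes against Control of 0.51 in FoxK1 KD, 0.50 in FoxK2 KD and 1.02 in DKD (adjusted p of DKD against each single knockdown 0.014 and 0.0187), and so was Ctsf (0.46, 0.45 and 0.91, adjusted p 0.0139 and 0.0174). C3 stood at 0.20 in FoxK1 KD, 0.77 in FoxK2 KD and 0.96 in DKD, and DKD exceeded FoxK1 KD (adjusted p 0.0176). The order was the other for Slc6a18, at 1.40, 0.33 and 1.15, where DKD exceeded FoxK2 KD (adjusted p 0.00231), and for Aff4, at -0.70, -0.09 and -0.58, which was lower in DKD than in FoxK2 KD (adjusted p 0.00231). Thbs1 had another order, since its log2 fold change of 1.59 with FoxK1 siRNA alone was larger than that of 0.83 in DKD (DKD below FoxK1 KD, adjusted p 0.00173) while FoxK2 siRNA alone gave 0.05. These genes were chosen after their values were seen.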

How the data were processed

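RNA of AML12 cells was sequenced by the authors after an mRNA library preparation (NEBNext). Per the submitters' processing notes, CASAVA 1.8, STAR 2.4.2a and featureCounts with GRCm38.p4 were used, and the authors deposited whole-number counts per gene for each sample, with 49089 Ensembl identifiers. Of these 48435 matched GENCODE M21. Counting by strand is not given in the sources used here. Genes were kept by filterByExpr, leaving 11368. Counts were scaled by TMM and tested with edgeR 4.0.16 (quasi-likelihood, R 4.3.3) in 1 model of the 8 groups over 30 samples, in place of the study's limma because the files hold counts. A gene was called at a Benjamini-Hochberg adjusted p under 0.05. Log2-CPM used a prior count of 2. DESeq2 1.42.0 and limma-voom (limma 3.58.1) were alternatives, and the test was checked on simulated data. Depth was 2606258 to 4455447 counts in the 6 samples, and the standard error of log2 fold changes had a median of 0.152 over all genes.

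The members and gene lists were chosen with earlier results of these data known, and several lists hold genes that the study picked from these samples. Genes were named by a rule. It took both targets and the 12 protein-coding genes with the largest change in each direction. The latter came from called genes whose groups did not overlap and whose log2-CPM averaged 2 or more. The rule also took up to 4 genes of each list by adjusted p, the listed genes that the study names, and up to 3 noncoding genes a direction. Last came the 5 genes with the smallest adjusted p for the difference between insulin and basal. Others are said to be chosen after their values were seen, or are called members of a list. No 2 samples were closer than sampling noise allows, so each counted once. Results for some genes that the rule names are not reported here.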

Additional observations from a re-analysis of the deposited data

Results flagged for a closer look

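The DKD effect after insulin was compared with that at basal by the interaction term of the edgeR model, and 15 genes are given here because this difference passed an adjusted p under 0.05. They are the named genes and those with the smallest adjusted p, and the difference is in log2, after insulin minus basal. Among genes called after insulin, it was 0.89 for Deptor, 0.63 for Ube2h, 0.58 for Nrep and 0.45 for Scd1.

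Skp1a, a subunit of SCF ubiquitin ligases, and Kdm6a, a histone H3K27 demethylase, were lower in DKD at basal and not after insulin, with log2 fold changes of -0.53 and -0.79 at basal against 0.21 and 0.11 after insulin. Their differences were 0.73 and 0.91. The lowest and highest Skp1a levels were 435 and 533 CPM in Control basal, 308 and 346 in DKD basal, 317 and 366 in Control insulin, and 389 and 402 in DKD insulin. For Kdm6a they were 127 and 159, 78.1 and 92.9, 94.0 and 99.6, and 100 and 110 CPM in the same order. In both genes every Control basal value lay above those of the other groups given.

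Of the genes that the study picked on these samples, Vcam1 had a difference of 0.68, mt-Nd6 of 0.98, Scd2 of 0.47 and Tomm22 of 0.73, each with a decrease at basal (-0.90, -1.15, -0.59 and -0.67) and a value nearer 0 after insulin. Ccnd1, the cyclin of G1 entry, and Letm1, a mitochondrial cation exchanger, had differences of -0.63 and -0.54, with increases of 0.74 and 0.35 at basal and values of 0.11 and -0.19 after insulin.

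Gm42939, Gm12960 and Gm12922 had fitted differences of -6.22, -4.68 and -5.38. These values depend on the prior count, because the 4 Control basal samples held 1, 3 and 2 counts of them in all, against 126, 61 and 72 in the 4 DKD basal samples. After insulin the 3 Control samples held 73, 29 and 44 counts and the 3 DKD samples 115, 28 and 43. Rps2-ps10 and Gm13668 are pseudogenes chosen for being at 0 CPM in every Control basal sample. In DKD basal they were at 4.59 to 12 and 2.58 to 5.91 CPM. After insulin they were at 4.42 to 14.5 and 1.26 to 5.54 CPM in Control, and 9.27 to 17.4 and 0.221 to 3.87 CPM in DKD. The part that Control basal as a group has in the basal calls was not tested.

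The difference was called in all 14 refits that each left out 1 of the 14 samples for Gm42939, Skp1a, Kdm6a, Gm12960, Gm12922, Deptor, Vcam1, mt-Nd6 and Ccnd1. It was called in 12 for Scd2 and Letm1, in 11 for Ube2h, in 7 for Tomm22, in 5 for Scd1 and in 4 for Nrep. Control basal replicate 1, which stands apart from its replicates, enters each of these differences, and its part was not tested beyond that refit.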

How the results depend on the processing

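None of the 138 called genes changed sign in any of the 17 other settings, and 15 that rose and 2 that fell were called in all of them. The number that rose (99) and that fell (39) became 33 and 7 with the 6 samples alone, 170 and 40 at an adjusted p under 0.25 with a fold above 1.5, and 67 and 9 with that fold at 0.05. The number that fell was 70 by DESeq2, 70 with the 14 insulin samples alone and 79 with the correction for GC content and length, and leaving out 1 sample gave 41 to 83 and 13 to 38. Deviations of samples with the same number did not go together (correlations 0.0273, -0.202 and -0.0593), so the samples were not treated as pairs. With 3 samples a group, such correlations cannot exclude a pairing, and the labels do not give one. A replicate block gave 86 and 31 genes in all 30 samples, 16 and 2 in the 6 samples alone, and 117 and 59 together with the GC and length correction. Both targets were called lower, but Foxk2 alone with the 6 samples (1 of 2), with the block in them (1), and in 4 of the refits without 1 sample (1 to 2). Leaving out 1 sample gave 781 to 1480 genes higher and 901 to 1583 lower at basal, and 60 to 358 with a difference between insulin and basal. The looser rule (0.25, 1.5-fold) gave 507 and 357 genes at basal, 459 with a difference, 18 for FoxK2 KD and 95 for DKD against FoxK1 KD. DESeq2 gave 10 and 62 for FoxK2 KD and for DKD against FoxK1 KD, and the GC and length correction gave 6 for FoxK2 KD. Genes that were never called changed sign: Mfn2 (-0.1034 to 0.02996 when 1 sample was left out, positive without Control 1), Tomm22 (-0.06767 to 0.1934 when 1 sample was left out, negative without Control 2 or DKD 2), Mtch1 (-0.04022 with the GC and length correction, -0.04119 with the block added, and -0.117 to 0.1421 when 1 sample was left out, negative without Control 3 or DKD 1) and Cdkn1b (0.01446 and 0.01432). The cause of these changes was not tested. For the medians of 39 gene lists, 20 of 428 values under settings that kept all 6 samples moved by more than the spread, and 40 of 234 values without 1 sample did. With 3 samples a group, the median standard error of 0.152 in log2 limits which changes could be called, the more so for scarce genes.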
